A study of Mus musculus with 2 samples.

Results

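Transcripts of 48 genes of DNA replication and S phase were examined in regulatory T cells (Tregs) sorted from the kidneys of mice with a kidney disease labelled cGN, set off by antibodies. The genes were chosen by name for their roles in origin licensing, the replication fork, nucleotide supply, E2F control and replication-linked repair, out of 22911 genes that the probes of the array could be assigned to by RefSeq accession. Tregs carrying CD45, CD3e, CD4 and the FoxP3-hCD2 reporter, which displays human CD2 on cells that express Foxp3, were taken 28 days after disease induction with antibody against the glomerular basement membrane (anti-GBM). Their RNA was measured on 2 single-colour (Cy3) arrays. By the sample labels, the scanner output of array 2 belongs to anti-GBM lot M and that of array 1 to lot I. The labels also state that disease severity varied with the lot. Both arrays came from diseased kidneys and are numbered in their titles as repeats of one condition, so neither is an untreated control. No label used here gives the strain, the age or the number of mice behind each array.

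The deposited value table assigns the arrays to the lots the other way round, so the arrays are called by number. Every difference is the level on array 2 minus that on array 1. Its direction is M minus I if the scanner output is under the right lots and I minus M if the value table is. A level is log2 of the processed signal over the 75th percentile of the array, averaged over the probes of a gene. With 1 array per lot there was no test and no replicate check. The error given with a difference, called the spot error, comes from the scanner's own estimates for single spots. These were combined over the spots and probes of a gene as if independent, so the error is smaller for genes with several probes. It holds no spread among mice or lots.

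Before a cell divides it copies its genome once. In G1 the origin recognition complex, Cdc6 and Cdt1 load the MCM helicase onto origins, and in S phase Cdc45 and the GINS complex switch the helicase on while polymerases, the sliding clamp and its loaders copy the DNA. Most of these genes are targets of E2F factors, which the retinoblastoma family holds in check until cyclins drive the cell out of G1. Tregs in inflamed tissue are known to include cells that divide in place.

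The sorted RNA carried the markers of its label. The level of Foxp3 was 4.74 on array 2 and 4.92 on array 1, that of Cd3e 5.58 on array 2 and 5.47 on array 1, and that of Cd4 3.20 on array 2 and 3.21 on array 1. Both arrays detected 15 of 15 genes of a Treg list and 14 of 15 of a T cell identity list, against 60.0% of all named genes. Of the T cell identity list Trac was not measured. Lists of proximal tubule (16 of 16), distal nephron and collecting duct (14 of 14) and macrophage and monocyte genes (14 of 14) were detected in full too. Detection therefore does not show that the RNA came from Tregs alone. Array 2 had 30558 of 56605 probes well above background and array 1 had 30576. The levels of single probes are not comparable between genes, since probes differ in how well they bind.

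Because most of these genes are known E2F targets, their promoters were searched for E2F letters. The sequences came from RefSeq (GRCm38.p6), a window of 300 bases from 250 before to 50 after each gene's start, and 39 of the 48 genes were matched by symbol. No window was held for Ccne2, Dscc1, Gins1, Gins2, Mcm4, Pole, Prim2, Rfc2 and Tipin. The letters searched on both strands were TTTCCCGC, TTTGGCGC and TTCCCGCC, of which the first and last overlap in all but 1 letter each, and 19 of the 39 genes (48.7%) held at least 1 of them. Over all 27025 genes with a window the share was 3.69% (997 genes), and over the 10961 of them measured on both arrays it was 6.65%. The stretches below show the letters in place in the 6 licensing genes that held them and in 10 genes of the other roles, written 5′ to 3′ in the direction of the gene with the matched letters in capitals. Where GCGGGAAA, GCGCCAAA or GGCGGGAA is in capitals, the match lies on the other strand, and in Mcm3 GGCGGGAAA joins overlapping matches.
Cdc6, chr11:98908003-98908030, plus strand: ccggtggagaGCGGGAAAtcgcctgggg
Cdt1, chr8:122568037-122568064, plus strand: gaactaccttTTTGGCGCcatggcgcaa
Mcm3, chr1:20820277-20820304, minus strand: aaacttccgtGGCGGGAAAacttgggaa
Mcm5, chr8:75109350-75109377, plus strand: aagaactttcGCGCCAAAacgtccagcc
Mcm6, chr1:128359798-128359825, minus strand: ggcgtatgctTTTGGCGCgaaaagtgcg
Mcm7, chr5:138172031-138172058, minus strand: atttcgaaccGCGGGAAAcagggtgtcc
Prim1, chr10:128015190-128015217, plus strand: gcctgtcttgTTCCCGCCaattctcgtg
Pole2, chr12:69228163-69228190, minus strand: gtcggcggtgGCGCCAAAtcgcgaacat
Pola1, chrX:93632276-93632303, minus strand: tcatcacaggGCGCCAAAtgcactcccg
Rfc3, chr5:151651191-151651218, minus strand: tttcgcgctcGCGGGAAAactctactgt
Rrm1, chr7:102441618-102441645, plus strand: ggagaactcgTTCCCGCCaggtccgctt
Chaf1a, chr17:56040359-56040386, plus strand: gttgccgcggTTCCCGCCaaatacgagc
Brca2, chr5:150522443-150522470, plus strand: ttaggccacaGCGGGAAAcagacacaca
Rad51ap1, chr6:126939559-126939586, minus strand: tctggttttcGGCGGGAAttgaaaccgc
Chek1, chr9:36726609-36726636, minus strand: gcatgacgcaagcaggttttGGCGGGAA
E2f2, chr4:136172296-136172323, plus strand: aatttggcggcatatagTTTGGCGCtaa

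A second set of letters, TTTGAA, is the core of the cell cycle genes homology region (CHR), an element known from genes of G2 and mitosis. It was found on either strand in 5 of the 39 replication and S phase genes (12.8%) and in 22 of 30 mitosis genes with a window (73.3%). The share was 20.2% over all genes with a window and 14.9% over the 10961 of them measured on both arrays. The E2F letters were found in 2 of those 30 mitosis genes (6.67%) and in 12 of 39 further replication genes (30.8%). E2f2 was the only gene among the 39 that held both kinds of letters in its windows. Whole windows are shown for Mcm3, a helicase subunit whose window held all 3 E2F strings, and for E2f8, which of the 47 measured genes differed most between the arrays and whose window held the CHR letters and none of the E2F strings. A match is a description of the letters and not evidence of a binding site.
Mcm3, chr1:20820263-20820562, minus strand: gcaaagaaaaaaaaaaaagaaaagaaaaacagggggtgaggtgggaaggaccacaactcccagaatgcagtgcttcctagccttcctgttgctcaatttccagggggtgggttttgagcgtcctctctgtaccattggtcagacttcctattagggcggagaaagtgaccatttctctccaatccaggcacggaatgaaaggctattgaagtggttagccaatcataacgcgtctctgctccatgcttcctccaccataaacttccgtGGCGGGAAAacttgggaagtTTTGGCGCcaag
E2f8, chr7:48881547-48881846, minus strand: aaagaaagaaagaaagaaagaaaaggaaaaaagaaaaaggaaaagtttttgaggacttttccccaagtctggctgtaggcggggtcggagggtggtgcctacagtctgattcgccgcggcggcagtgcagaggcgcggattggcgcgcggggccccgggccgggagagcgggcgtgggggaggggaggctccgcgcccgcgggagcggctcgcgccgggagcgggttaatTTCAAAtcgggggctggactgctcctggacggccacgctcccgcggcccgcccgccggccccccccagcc

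**Figure D1:**
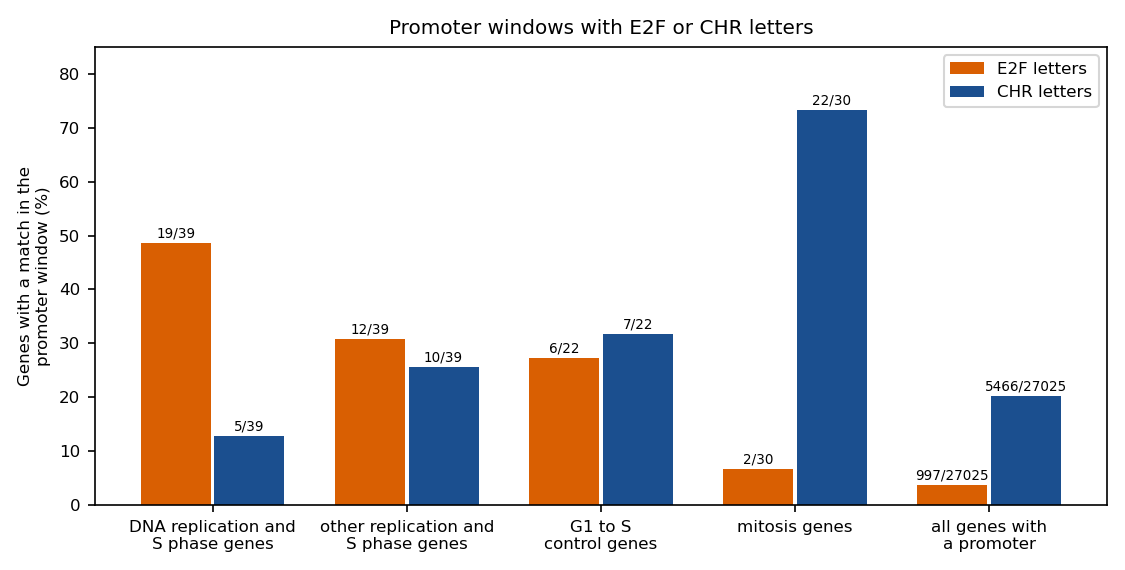
Share of genes (%) with E2F letters or CHR letters in the promoter window, by gene list, with the number of genes over each bar. Among the replication and S phase genes 19 of 39 held E2F letters and 5 of 39 CHR letters, whereas among mitosis genes 2 of 30 and 22 of 30 did.

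Transcripts of 47 of the 48 genes were well above background on both arrays, against 60.0% of all named genes (13743 of 22911). The exception was Ccne2, one of the cyclins E that open S phase with Cdk2, whose single probe lay at -6.38 on array 2 and -6.82 on array 1. Both values are under the detection floors of -4.58 on array 2 and -4.62 on array 1, and they have no order. Of the 47 genes, 46 were lower on array 2, against 46.2% of all genes measured. The median difference was -0.14, equal to a signal 8.96% lower on array 2, and the median over all genes was 0.01. The differences ran from -0.51 to 0.04, and none reached 2-fold. Over all genes 0.0873% were 2-fold or more lower on array 2 and 1.34% were 2-fold or more higher. The signals summed over the 47 genes came to 263 times the 75th percentile on array 2 and 286 times on array 1.

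Single differences were of the size of the spot error, which ran from 0.12 in Mcm3, with 3 probes, to 0.22 in Dscc1, with 1. On array 2, 19 of the 47 genes were lower by more than 1 error and none was higher by more than 1. Over all genes 11.4% were lower and 17.1% higher by that measure. The measure depends on the number of probes of a gene. Rfc4 at -0.16 ± 0.14 with 2 probes counted as lower, whereas Rrm1 at -0.16 ± 0.20 with 1 probe did not. In the lowest 25.0% of all gene differences, those under -0.09, lay 33 of the 47. The error model is wider than the scatter of repeated spots. For 277 brighter probes with 6 or more spots each, the spots had a median SD of 0.033 on array 2 and 0.034 on array 1, and the differences of these probes between the arrays had a median of 0.02 and an SD of 0.10. The scatter of spots within an array does not measure the spread between arrays. In bulk RNA of this kind, fewer dividing cells and less of each transcript per dividing cell cannot be told apart. With 1 array per lot, neither can a different share of RNA from other cells or a difference in hybridisation.

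**Figure D2:**
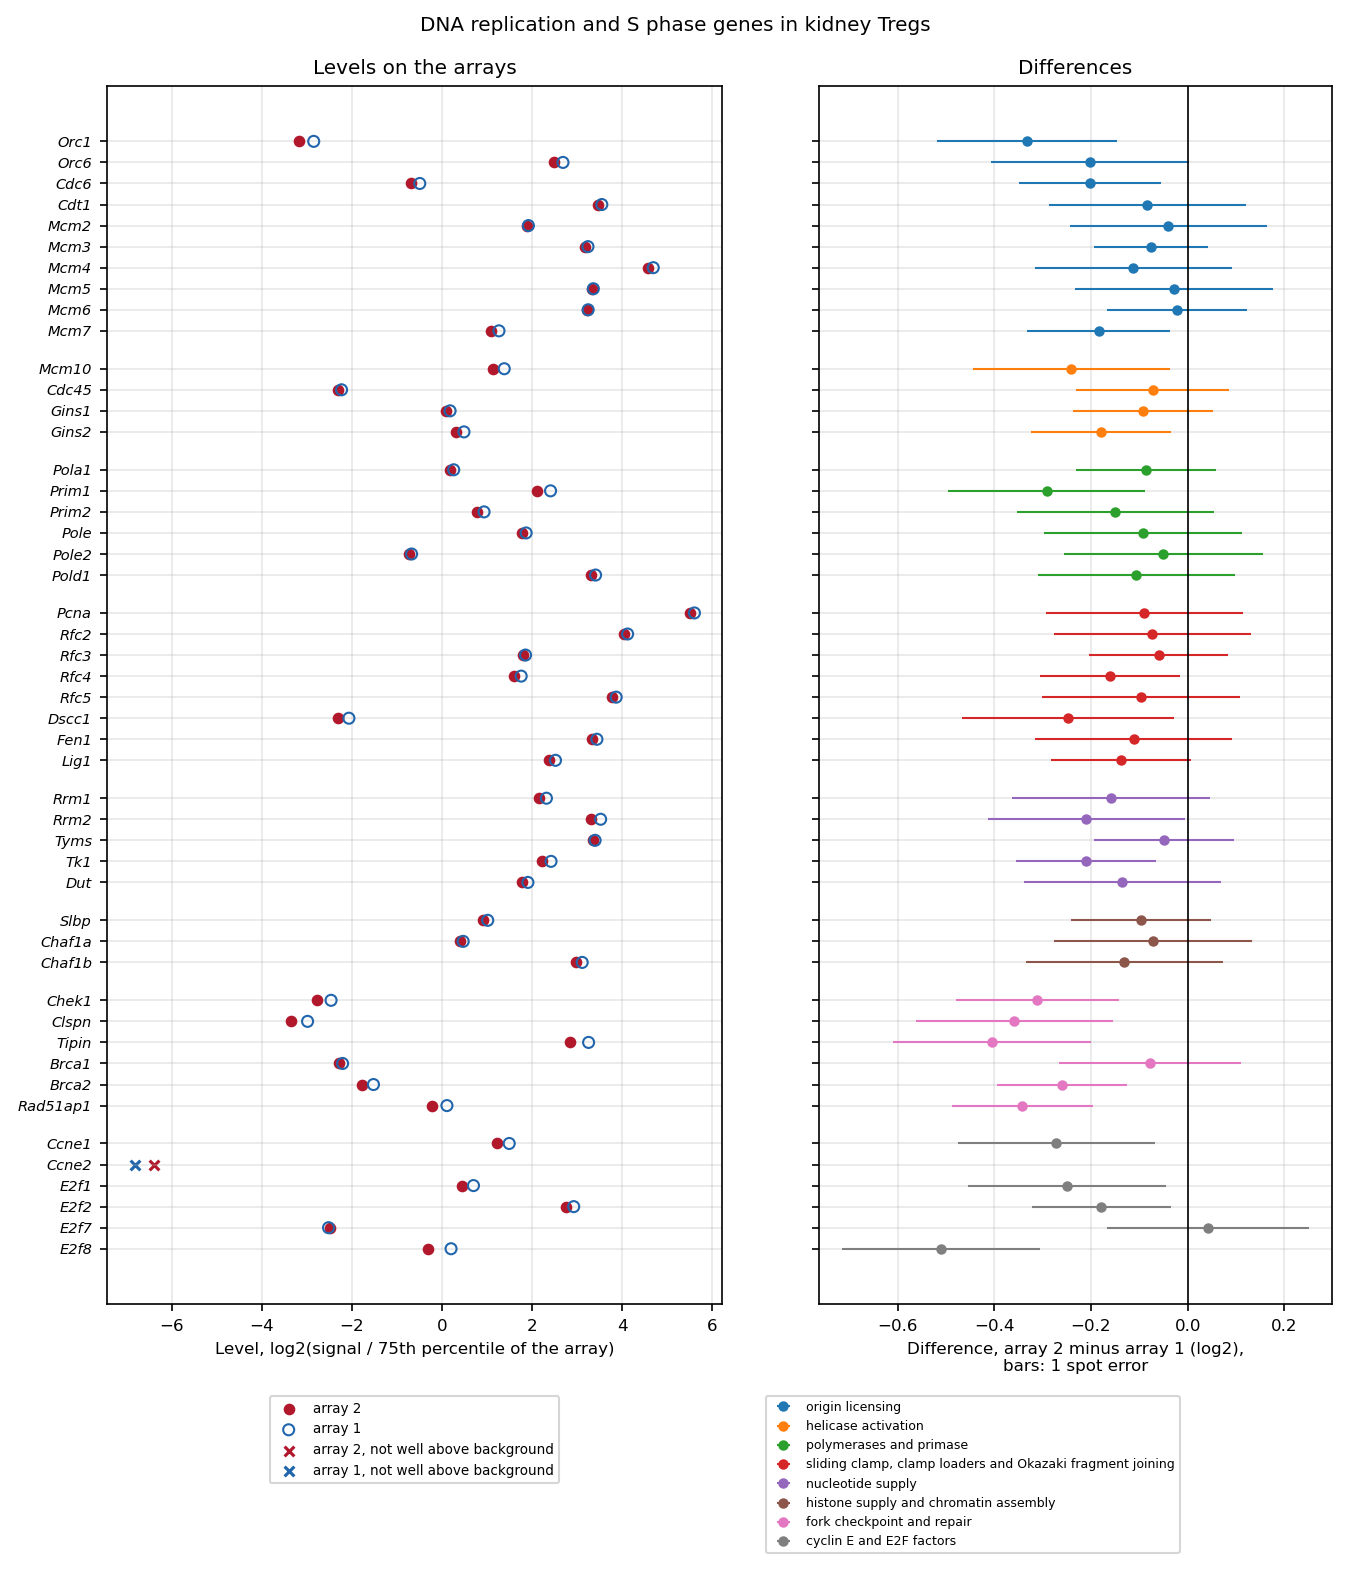
Left, level of each of the 48 genes on array 2 (filled circles) and array 1 (open circles) as log2 of signal over the 75th percentile; crosses mark Ccne2, not well above background. Right, the difference array 2 minus array 1 on the log2 scale with 1 spot error, coloured by role; 46 of 47 points lie left of 0, from -0.51 in E2f8 to 0.04 in E2f7 (-0.01 when scaled to spike-ins).

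The genes of origin licensing were lower on array 2 in 10 of 10 cases, with a median of -0.10. Orc1, the largest subunit of the origin recognition complex, was dim. It stood at -3.18 on array 2 and -2.85 on array 1, a difference of -0.33 ± 0.19, and its 2 probes differed by -0.33 each. With normexp background correction, a model-based correction that adds a fixed offset to every signal, Orc1 differed by -0.12, and a stricter filter on dim probes left it out. Orc6, the smallest subunit, was at 2.48 on array 2 and 2.69 on array 1 (-0.20 ± 0.20). Cdc6, the ATPase that recruits the helicase to the origin, had -0.69 on array 2 and -0.49 on array 1 (-0.20 ± 0.15). Cdt1, which brings the helicase to Cdc6 and is destroyed in S phase, was at 3.46 on array 2 and 3.55 on array 1 (-0.08 ± 0.20).

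Of the 6 subunits of the MCM helicase, 5 lay close to 0. Mcm2, Mcm5 and Mcm6 differed by -0.04, -0.03 and -0.02, Mcm3 by -0.08 and Mcm4 by -0.11, each within 1 spot error. Mcm4 stood at 4.58 on array 2 and 4.69 on array 1, and Mcm5 at 3.33 on array 2 and 3.36 on array 1. Mcm7 was the exception, with 1.08 on array 2 and 1.26 on array 1 (-0.18 ± 0.15). Its dimmer probe differed by -0.27 and its brighter one by -0.10, and the value of Mcm7 is their mean. Among the factors that activate the loaded helicase, Mcm10, which has a role in starting the fork, stood at 1.14 on array 2 and 1.38 on array 1 (-0.24 ± 0.20). Gins2, a subunit of the GINS complex, had 0.31 on array 2 and 0.49 on array 1 (-0.18 ± 0.14), and Gins1 of the same complex differed by -0.09. Cdc45 differed by -0.07 ± 0.16, and its 2 probes had opposite signs (-0.24 and 0.09).

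The polymerase and primase genes were lower on array 2 in 6 of 6 cases, with a median of -0.10. Prim1, the catalytic subunit of the primase that lays down RNA primers, was at 2.12 on array 2 and 2.41 on array 1. Its difference of -0.29 ± 0.20 was the only one of the 6 over 1 spot error. Prim2, the other primase subunit, differed by -0.15 (-0.08 with normexp), and Pola1, the catalytic subunit of the polymerase bound to the primase, by -0.09. Pold1, the catalytic subunit of the lagging strand polymerase delta, differed by -0.11. Pole, its counterpart in polymerase epsilon of the leading strand, differed by -0.09 (-0.18 with normexp), and the accessory subunit Pole2 by -0.05.

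Sliding clamp, clamp loader and Okazaki fragment genes were lower in 8 of 8 cases, with a median of -0.10. Pcna, the ring that tethers polymerases to DNA and is widely used as a marker of proliferation, stood at 5.51 on array 2 and 5.60 on array 1. In unscaled units its probe read 12762.5 on array 2 and 13874.6 on array 1, and the difference was -0.09 ± 0.20. The clamp loader subunits Rfc2, Rfc3, Rfc4 and Rfc5 differed by -0.07, -0.06, -0.16 and -0.10. Dscc1, a subunit of the alternative clamp loader that also serves sister chromatid cohesion, was dim, at -2.31 on array 2 and -2.07 on array 1 (-0.25 ± 0.22, but -0.08 with normexp). Fen1, the flap nuclease that trims Okazaki fragments, differed by -0.11, and Lig1, the ligase that joins them, by -0.14.

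Nucleotide supply genes were lower in 5 of 5 cases, with a median of -0.16. Rrm2, the subunit of ribonucleotide reductase whose amount rises in S phase, had levels of 3.31 on array 2 and 3.52 on array 1 (-0.21 ± 0.20), and Rrm1, the large subunit, differed by -0.16. Tk1, the thymidine kinase of dividing cells, had 2.21 on array 2 and 2.42 on array 1, and both of its probes differed by -0.21. Tyms, which makes thymidylate from deoxyuridylate, differed by -0.05 ± 0.14, with 1 probe at -0.11 and the brighter one at 0.01. Dut, which keeps uracil out of DNA by destroying dUTP, differed by -0.14. Of these 5 genes, only Tk1 and Rrm2 differed by more than 1 spot error, and whether the genes of this list differ from each other was not tested. For histone supply and chromatin assembly the differences were -0.10 for Slbp, which binds the stem-loop of histone mRNA, -0.07 for Chaf1a and -0.13 for Chaf1b, subunits of the chromatin assembly factor that puts histones behind the fork.

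The fork checkpoint and repair genes had a median of -0.33, and 5 of the 6 were lower on array 2 by more than 1 spot error. The median was -0.15 with normexp and -0.22 with the brightest probe of each gene, and under both it was closer to 0 than that of the cyclin E and E2F genes. Tipin, the partner of Timeless in the complex that steadies the fork, had 2.85 on array 2 and 3.25 on array 1, a difference of -0.40 ± 0.20 at a level well above the 75th percentile. Clspn, the adaptor claspin that passes the checkpoint signal to Chk1, was at -3.34 on array 2 and -2.98 on array 1 (-0.36 ± 0.20), but its 2 probes differed by -0.67 and -0.05. Chek1, which encodes Chk1 itself, had -2.77 on array 2 and -2.46 on array 1 (-0.31 ± 0.17), and its probes differed by -0.52 and -0.11. In both genes the dimmer probe gave the larger difference, and with normexp Clspn differed by -0.15 and Chek1 by -0.06. The stricter filter left out Clspn and gave -0.11 for Chek1, as did its brightest probe. Rad51ap1, a gene of DNA repair by homologous recombination, had -0.23 on array 2 and 0.11 on array 1 (-0.34 ± 0.15), with its 2 probes at -0.35 and -0.33. Brca2, a tumour suppressor gene of the same repair pathway, had 3 probes that differed by -0.32, -0.27 and -0.18, and the gene stood at -1.78 on array 2 and -1.52 on array 1 (-0.26 ± 0.14, and -0.15 with normexp). Brca1, which encodes a ubiquitin ligase of that pathway, differed by -0.08 ± 0.19.

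Of the cyclin E and E2F genes 5 of 6 were measured, 4 of them lower on array 2, with a median of -0.25. E2f8, an atypical E2F that shuts down S phase genes late in the cycle, had the largest difference of the 47 genes, with -0.31 on array 2 and 0.20 on array 1, a difference of -0.51 ± 0.20, equal to a signal 29.8% lower. It rests on 1 probe. The activators E2f1 (0.45 on array 2 and 0.70 on array 1) and E2f2 (2.74 on array 2 and 2.92 on array 1) differed by -0.25 ± 0.20 and -0.18 ± 0.14. Ccne1, the cyclin E that was detected, had 1.22 on array 2 and 1.49 on array 1 (-0.27 ± 0.20). E2f7, the other atypical repressor, was the single gene of the 47 with a positive difference, 0.04 ± 0.21, which turned to -0.01 when scaled to spike-ins, and this mean hid probes of opposite sign. Its brighter probe read 106.8 on array 2 and 150.1 on array 1 in unscaled units (-0.46), and its dimmer probe 23.7 on array 2 and 16.6 on array 1 (0.54).

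Probes gave a check within the arrays that the averages do not show. Of 71 measured probes to the 47 genes 66 were lower on array 2, against 47.4% of all probes with a gene name. Among 22 genes with several probes, 17 had every probe lower, and the other 5 (Cdc45, E2f7, Mcm6, Slbp and Tyms) had probes of both signs. The 25 genes with 1 measured probe were lower in 25 cases. The median range between probes of one gene was 0.12, and the widest was 1.01 in E2f7. Probes of one gene share the RNA and the hybridisation, so they are not replicates of the condition.

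**Figure D3:**
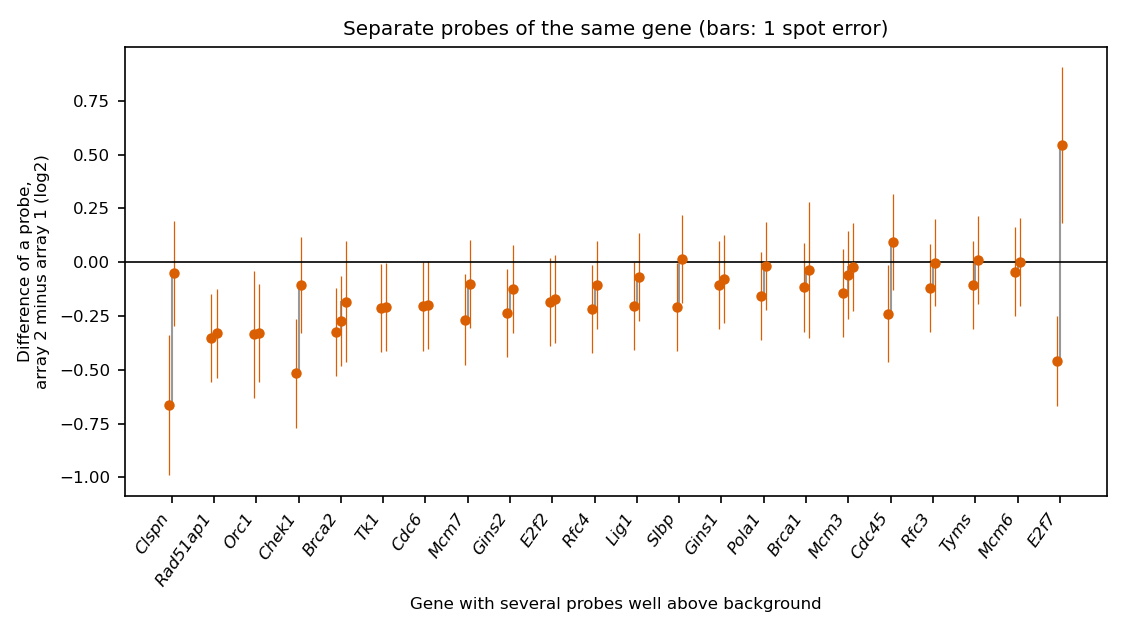
Differences of separate probes (array 2 minus array 1, log2, with 1 spot error) for the 22 genes with several measured probes, ordered by their mean. Points of 17 genes all lie under 0, and E2f7 at the right has probes at -0.46 and 0.54.

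The relation of difference to level depended on the background correction. The 12 genes with a mean level under the 75th percentile had a median of -0.25, with 11 lower, and the 35 above it had a median of -0.11, with 35 lower. With normexp the medians of the same genes were -0.11 and -0.12. Over all genes the medians were 0.03 below and 0.01 above the same limit, where 45.4% and 46.8% of genes were lower on array 2. Spearman's rho between difference and mean level was 0.29 over the 47 genes, which share both arrays, and -0.04 over all 13743. Over the 47 genes it was 0.01 with normexp. With lowess centring on level, 46 of the 47 were lower, and the median was -0.12.

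**Figure D4:**
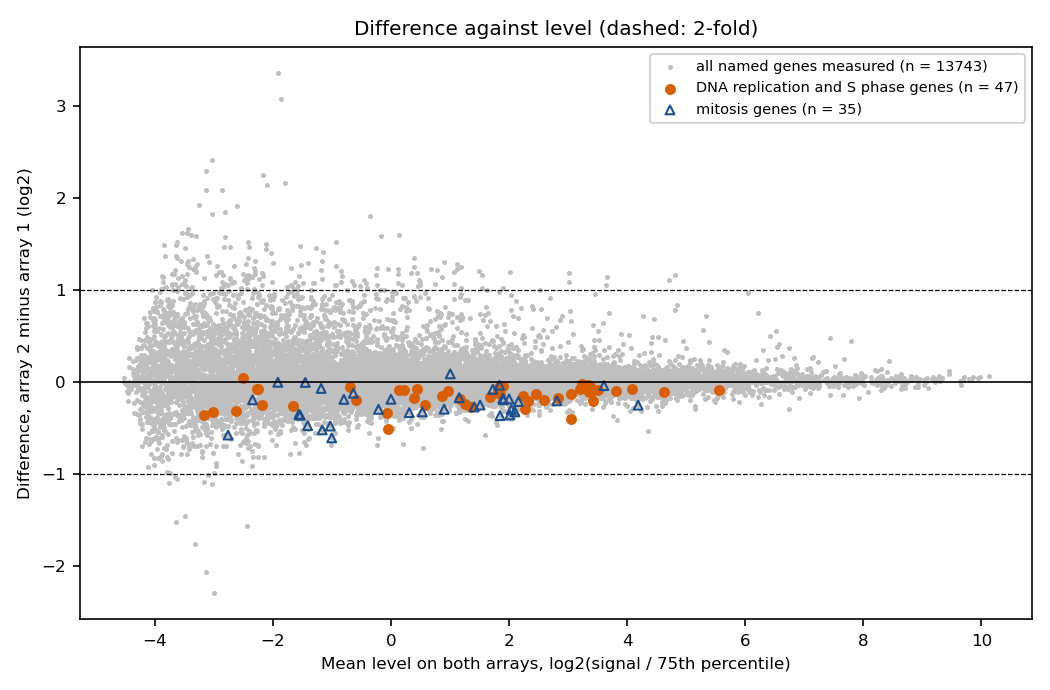
Difference array 2 minus array 1 (log2) against the mean level of a gene on both arrays; grey points are all 13743 genes, orange the 47 replication and S phase genes and triangles 35 mitosis genes, with dashed lines at 2-fold. Of the orange points 46 of 47 lie under 0, on the dim and the bright side, between -0.51 and 0.04.

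A list of 50 further replication and S phase genes was measured in full, and 44 were lower on array 2, with a median of -0.12. On array 2, 16 of them were lower and 1 (Shmt1, a folate enzyme, 0.27 ± 0.18) was higher by more than 1 spot error. The largest differences were in the nuclease and helicase gene Dna2 (-0.56 ± 0.23), the cohesin acetyltransferase gene Esco2 (-0.55 ± 0.29), the origin firing genes Mtbp (-0.45 ± 0.16) and Ticrr (-0.40 ± 0.17), the helicase gene Blm (-0.44 ± 0.15) and Atad5, which unloads Pcna (-0.37 ± 0.17). With normexp these 6 differences lay between -0.12 in Esco2 and -0.32 in Blm, and the stricter filter left out Dna2 and Esco2. Gmnn, the inhibitor of Cdt1, differed by -0.21 ± 0.14. The gene of Tipin's partner, Timeless, differed by -0.17 ± 0.14, with its 2 probes at -0.32 and -0.01.

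Genes that control the passage from G1 to S showed less of a common direction. Of 29 measured, 18 were lower on array 2 and 11 higher, with a median of -0.03. E2f4, a repressive E2F of resting cells, had the largest difference, -1.76 ± 0.34. It was measured by 1 probe close to the detection floor, at -4.19 on array 2 and -2.43 on array 1, and was past 2-fold. With normexp it differed by -0.51, under 2-fold, and the stricter filter left it out. Rb1 (-0.36 ± 0.14) and Rbl1 (-0.27 ± 0.12), which encode retinoblastoma family proteins, Cdkn2a (-0.33 ± 0.21) and the kinase gene Cdk6 (-0.29 ± 0.21) were lower, while Myc was higher (0.29 ± 0.15). With normexp Cdk6 differed by -0.13 and Rbl1 by -0.17. The inhibitor genes Cdkn1a and Cdkn1b, which hold Cdk2 back, differed by -0.03 and 0.01. Of the cyclin D genes, Ccnd1 differed by 0.24 ± 0.20, and the T cell cyclins D Ccnd2 and Ccnd3 by -0.10 and 0.13. By more than 1 spot error, 6 genes of this list were lower and 2 (Myc and Ccnd1) were higher.

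Mitosis genes, the list nearest in role, were lower on array 2 in 34 of 35 cases, with a median of -0.25, and 23 were lower by more than 1 spot error. Hmmr (-0.61 ± 0.12), Ttk (-0.58 ± 0.17), Bub1 (-0.52 ± 0.21), Cenpf (-0.48 ± 0.15), Kif11 (-0.48 ± 0.21) and Ube2c (-0.37 ± 0.20), all of the spindle, its checkpoint or mitotic exit, had the largest differences. With normexp these lay between -0.19 in Ttk and -0.35 in Ube2c. The 3 probes of Hmmr ran from -0.83 to -0.26 and the 2 probes of Cenpf from -0.66 to -0.30. In both genes the brightest probe gave the smallest difference. Mki67, the proliferation marker Ki-67, was at 4.06 on array 2 and 4.31 on array 1 (-0.25 ± 0.20). The replication and S phase median of -0.14 was closer to 0 than this, and whether the lists differ was not tested.

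Markers of other cell types also differed between the arrays, and the direction varied by list. Among T cell identity genes 8 of 14 were lower on array 2 (median -0.01). Their summed signal was 1053 times the 75th percentile on array 2 and 1054 times on array 1. Of the Treg list 9 genes were lower and 6 higher (median -0.04), with a summed signal of 807 on array 2 and 831 on array 1. The largest differences of that list were in Il10 (-0.31 ± 0.20), Itgae (-0.27 ± 0.20) and Gpr83 (0.22 ± 0.20). Foxp3 differed by -0.17 ± 0.20. Proximal tubule genes were higher on array 2 in 15 of 16 cases, with a summed signal of 199 on array 2 and 96.7 on array 1. Distal nephron and collecting duct genes were higher in 13 of 14 (136 on array 2 and 101 on array 1) and macrophage and monocyte genes in 13 of 14 (46.4 on array 2 and 38.3 on array 1). No gene of these 3 lists was under the detection limit. Endothelial markers were measured in 9 of 10 cases (summed signal 7.95 on array 2 and 8.07 on array 1). CD8 T and natural killer cell markers were measured in 8 of 10 (19.98 on array 2 and 17.36 on array 1). Of these, 5 were higher on array 2 and 3 lower, with a median of 0.21, and 4 were higher by more than 1 spot error. The dim genes Klra8 (1.92 ± 0.27) and Eomes (1.19 ± 0.26) were past 2-fold. B and plasma cell markers were measured in 7 of 10 (7.05 on array 2 and 8.08 on array 1). Of those 7 genes 4 were higher on array 2, with a median of 0.09, while the sum was lower. Neutrophil markers were measured in 6 of 10 cases, and 4 were higher on array 2, each by more than 1 spot error, with a median of 0.34. Their sum (71.4 on array 2 and 75.2 on array 1) ran the other way and was mostly the signal of Csf3r, which differed by -0.14. Erythroid markers were measured in 2 of 8 (1.79 on array 2 and 1.38 on array 1), 1 of which, Slc4a1, is also in the distal nephron list. The defining markers Ly6g and Mpo of neutrophils, Ncr1 of natural killer cells and Pax5 of B cells were not measured on both arrays. The part of these cells in the differences of the replication genes was not tested.

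**Figure D5:**
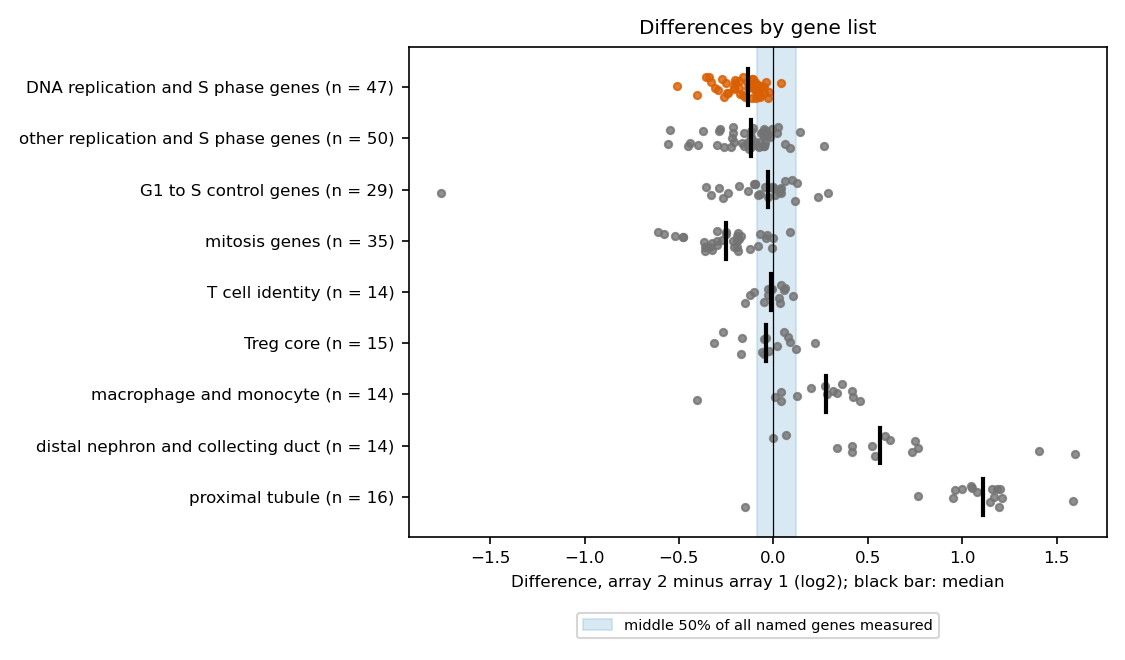
Differences array 2 minus array 1 (log2) of single genes by list, with a black bar at each median and a blue band for the middle 50% of all genes measured. The replication and S phase genes centre at -0.14 and mitosis genes at -0.25, T cell identity genes at -0.01 and proximal tubule genes at 1.11.

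Genes with and without the E2F letters had overlapping ranges of difference, and whether the groups differ was not tested. Only the exact strings named above were searched, so a gene without them is not shown to lack an E2F site. Of the 19 genes that held them 18 were lower on array 2, with a median of -0.11 and a range from -0.34 to 0.04. Of the 20 genes with a window and without the letters 20 were lower, with a median of -0.14 and a range from -0.51 to -0.04. Scaling mattered at the size of these differences. Differences of the 8 spike-in controls ran from 0.01 to 0.08, with a median of 0.06. Scaled to them, 47 of the 47 genes were lower on array 2, with a median of -0.19, and 62.1% of all genes were lower.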

How the data were processed

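Tregs from diseased kidneys were profiled on 2 single-colour (Cy3) Agilent arrays, 1 per anti-GBM lot. Per the submitters' processing notes and the file headers, spots were read with Agilent Feature Extraction 10.7.1.1. The deposited processed signal intensity of each spot, with its error, was corrected for background within the array by the authors' software, per the file headers, and not normalised between arrays. Raw median intensity and other flags of detection and outliers were deposited too. The deposited value table is a linear ratio. No label or header says how the authors made it. Set against the scanner signals over 13576 probes above 300, its logarithm followed the array of the other lot with an SD of 0.000153, and the array of its own label with an SD of 0.153. The values are therefore linear and scaled by 1 constant per array, and which source has the lots right stays unknown. The columns had medians of 0.069 under lot M and 0.070 under lot I.

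From log2 signals the 75th percentile over non-control probes was subtracted. Control spots (3671 of 62976) and spots flagged as outliers (56 on array 2, 75 on array 1) were removed, and none was saturated. Of 56605 probes 58.3% received 1 gene symbol through RefSeq accessions (GRCm38.p6, used for names). For each gene, differences of the probes detected on both arrays were averaged. The number of arrays limits the precision. Genes and lists were chosen with earlier results of these data known, so no list is independent evidence. Each of the 48 genes is named, with up to 6 genes of each other cell cycle list by size of difference. Cdkn1a, Cdkn1b, Ccnd1, Ccnd2, Ccnd3, Gmnn, Timeless, Shmt1, Slc4a1, Csf3r, Klra8, Eomes, Il10, Itgae and Gpr83 were named after their values were seen. The calculation was tested on simulated data with less noise than the spot error. That test checks the arithmetic and not the precision of differences of this size. Normexp background correction (offset 50) used limma 3.58.1 in R 4.3.3 on median signals, and the rest Python 3.11.15 with statsmodels 0.14.6 for lowess (span 0.3).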

Additional observations from a re-analysis of the deposited data

How the results depend on the processing

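The median difference of the 47 genes, -0.14, lay between -0.12 and -0.15 under normexp background correction, scaling by the median of genes, quantile normalisation, lowess centring, no filter or a stricter filter on dim probes, the other detection flag, outlier spots kept, the brightest probe and the median over probes. It moved to -0.19 with spike-in scaling and to -0.17 with no scaling. With the columns of the value table taken by their labels the signs turn by construction, so that 1 gene was lower, the median was 0.13, E2f4 was at 1.76 and 186 genes were 2-fold lower and 13 higher. Matched to the arrays by value, an alternative chosen after seeing the data, the table gave 46 genes lower and a median of -0.13. Under the other alternatives 44 to 47 genes were lower. Mcm5 and Mcm6 turned positive with normexp (at 0.0042 and 0.03), and Mcm6, Tyms and Slbp with the brightest probe (at most 0.02), while E2f7 turned negative with normexp, spike-ins, the stricter filter and the brightest probe (-0.01 to -0.46). With no filter Ccne2 entered at 0.44. The offset of normexp draws dim probes towards 0 by construction, and 12 of the 47 differences were smaller by over 1.5 times and 3 larger. No gene of the 47 reached 1.5-fold. Of all genes, 12 were 2-fold lower and 184 higher, but 0 and 28 with normexp, 399 and 648 with no filter, 1 and 84 with the stricter filter and 229 and 440 with the other flag. At 1.5-fold the counts were 112 and 708, and at 4-fold 2 and 9. The share of all genes lower was 54.8% with no scaling and 38.1% with no filter. The cause of these changes was not tested. No paired analysis was possible because each lot has 1 array, and for the same reason no replicate could be left out. Genes near the detection floor, such as Clspn and E2f4, rest on dim probes.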
